A study of Mus musculus with 4 samples.

Results

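The macrophage lineage transcription factors described here are 7 genes, Maf, Tfec, Mitf, Cebpa, Cebpb, Cebpd and Spi1, taken by name from the 32285 genes of the count matrix and followed through all 17 deposited cell types and all 4 samples. The rule that lists them uses no measured value. The same 7 genes were read in every sample, so no member was lost to a filter on cells.

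CD45+ cells were sorted from melanomas in Rag2-/- mice and their transcripts were counted cell by cell from 3' tags. Every tumour came from YUMM1.7OVA, a mouse melanoma line that carries ovalbumin, and every host received OT-1 T cells, specific for a peptide of ovalbumin, on day 7 after injection, with tumours taken on day 10, 72 h later. The NTT sample grew from a line naive to targeted therapy and the RTT sample from a line resistant to it. RTT_ROSA26 is a resistant line with a control guide against the Rosa26 locus, and RTT_PTGS12KO is a resistant line that lacks Ptgs1 and Ptgs2, which encode the cyclooxygenases of prostaglandin synthesis. Per the study's methods, resistant cells and their engineered derivatives were kept in dabrafenib, a BRAF inhibitor, before injection. Rag2-/- hosts make no T or B cells of their own, the study's methods give its mice as young adults, aged in weeks, and the labels state 1 tumour per condition where the study's legends describe pooled tumours. Cancer cells were not sorted, so the loss of Ptgs1 and Ptgs2 in them cannot be checked here. Each group is 1 sample, so every difference below lacks a replicate check and none was tested.

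PU.1, the product of Spi1, is an ETS factor that sets the myeloid program and is present throughout monocytes, macrophages and neutrophils. The C/EBP proteins are basic leucine zipper factors. C/EBP alpha acts early in granulocyte and monocyte commitment, while C/EBP beta and C/EBP delta are raised by inflammatory and cyclic AMP signals in mature cells. MITF and TFEC belong to the MiT family, bind E-boxes and share targets in lysosomal and osteoclast genes, and MITF is also the lineage factor of melanocytes and mast cells. c-MAF, the product of Maf, binds Maf recognition elements in macrophages and T cells and is known for its place in tissue-resident and IL-10 producing macrophages.

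All 7 genes are protein coding in the GENCODE annotation of GRCm38. Spi1 lies on chromosome 2 from 91082390 to 91115756 and Cebpb on chromosome 2 from 167688915 to 167690418. Cebpa lies on chromosome 7 from 35119293 to 35121928 and Cebpd on chromosome 16 from 15887286 to 15891031. Mitf lies on chromosome 6 from 97807052 to 98021349, Tfec on the minus strand of chromosome 6 from 16833373 to 16898441, and Maf on the minus strand of chromosome 8 from 115682942 to 115707794. RefSeq promoter windows, 250 bases before to 50 after an annotated start on GRCm38.p6, were matched for 4 of the 7 members, and Mitf had 3 such windows for its separate starts, which 3' tags cannot tell apart.

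The windows of Tfec and Cebpb are shown because these genes differed in opposite directions between RTT_PTGS12KO and RTT_ROSA26 macrophages. Tfec is at chr6:16898392-16898691 on the minus strand and Cebpb at chr2:167688665-167688964 on the plus strand. Capitals mark matches, on either strand, to the PU.1 core GAGGAA, the C/EBP motif TTGCNNAA, the cyclic AMP element letters TGACG, the E-box letters CANGTG, the Maf element letters TGCTGAC and TATAAA.
Tfec: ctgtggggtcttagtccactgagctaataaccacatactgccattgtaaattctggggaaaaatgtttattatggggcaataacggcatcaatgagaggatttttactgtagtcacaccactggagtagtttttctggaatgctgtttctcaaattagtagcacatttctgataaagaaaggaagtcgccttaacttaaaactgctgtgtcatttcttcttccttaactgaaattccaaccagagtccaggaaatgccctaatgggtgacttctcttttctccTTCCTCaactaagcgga
Cebpb: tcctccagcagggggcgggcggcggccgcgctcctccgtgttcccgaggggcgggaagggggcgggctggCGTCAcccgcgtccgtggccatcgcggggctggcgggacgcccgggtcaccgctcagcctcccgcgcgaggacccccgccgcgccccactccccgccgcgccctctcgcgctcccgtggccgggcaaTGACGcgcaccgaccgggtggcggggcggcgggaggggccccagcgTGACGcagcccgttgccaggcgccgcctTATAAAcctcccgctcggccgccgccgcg
The Tfec window held 1 match, a PU.1 core on the opposite strand starting 33 bases after the start, and 28.3% of all 32851 windows of this length hold that motif. The Cebpb window held 3 copies of TGACG, at 180, 53 and 7 bases before the start, against 20.8% of windows with at least 1 copy, and a TATAAA 21 bases after the start, against 13.6%. In the other windows, Cebpa held a TATAAA at 30 bases before its start (13.6% of windows). The Mitf windows at chr6:97806808-97807107 and chr6:97929567-97929866 each held a TTGCNNAA match (10.8% of windows) and a TGCTGAC match (4.67%), and the latter also CANGTG (44.9%). The third Mitf window, chr6:97991533-97991832, held 2 overlapping TGACG matches and a TATAAA. No other matches overlapped. GC content was 80.7% for Cebpb and 40.3% for Tfec, against a median of 52.7% over the windows. These matches describe letters only, and no value in these data measures binding.

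The 4 samples held 6836 to 10296 cells and 69332486 to 146829369 UMIs (unique transcript counts), with a median of 7292.5 UMIs per cell in NTT and 12219 to 13280 in the others. Monocytes (Monocyte_1, Infl_Mono and Monocyte_3) numbered 522 in RTT, 144 in RTT_ROSA26, 4015 in RTT_PTGS12KO and 6619 in NTT. Macrophages (TAM_C1q, TAM_Spp1, TAM_cycling, TAM_H2Ab1 and Ctsk_Macro) numbered 6734, 5993, 5207 and 308 in the same order. Levels are CPM, the UMIs of a gene per 1000000 UMIs of the summed cells, with exact 95% Poisson intervals. Ratios are log2 of CPM + 1 in the first sample over the second, with exact 95% intervals of the ratio of counts. All intervals cover counting error only, not variation between mice. Because cell types were named from the same transcripts, differences between them are given as descriptions. The type Macro, led by Prg4, Retnla and Lyve1, and the types TAM_H2Ab1, TAM_cycling and Monocyte_3 had 0 of the macrophage or monocyte markers used here among their 10 leading genes, and Infl_Mono was led by interferon-induced genes. Summed macrophage markers were still 25950 CPM in Macro, 22140 in TAM_H2Ab1 and 26040 in TAM_cycling, against 25220 in TAM_Spp1. Summed monocyte markers were 9914 CPM in Monocyte_3, against 9373 in Monocyte_1. The 4 samples were pooled and loaded 3 times, so any free RNA of a load reached all 4, and 98 barcode sequences occurred in more than 1 load, 75 of them in 2 samples, with 0 shared between samples within a load.

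Spi1 stayed between 115 and 201 CPM in every myeloid type with at least 50 cells. In macrophages it stood at 135 CPM in RTT (133 to 137), 132 in RTT_ROSA26 (129 to 134), 122 in RTT_PTGS12KO (120.2 to 125) and 179.9 in NTT (interval 167 to 193). In monocytes it stood at 163 CPM in RTT, 172 in RTT_ROSA26, 151 in RTT_PTGS12KO and 174 in NTT. NTT was the highest and RTT_PTGS12KO the lowest in macrophages, and in monocytes the interval of RTT_PTGS12KO (147 to 155) lay below that of NTT (170.5 to 178) while those of the other samples overlapped both. Over the 11 cell types from Infl_Mono (mean of the samples 178 CPM) down to DC3 (119), each type's range over samples overlapped that of the next in order. Spi1 was lower in NK cells (15.7 and 18.3 CPM in the 2 samples with at least 50 such cells), T_CD8 (16.7) and Myofibrobl (5.39 and 5.82), types outside the myeloid lineage.

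In macrophages Cebpb stood at 1044 CPM in RTT (1038 to 1050.0), 789.9 in RTT_ROSA26 (784 to 795), 1020.0 in RTT_PTGS12KO (1014 to 1027) and 848 in NTT (820.3 to 877). In monocytes it stood at 1284, 1897, 1507 and 1600.0 CPM in this order. RTT_ROSA26 was thus the lowest sample in macrophages and the highest in monocytes. By the mean over samples its highest type was Neutro, with 2836 CPM in RTT, 1932 in RTT_ROSA26, 2616 in RTT_PTGS12KO and 2438 in NTT. Infl_Mono followed at 1451 to 1977 CPM, a range that overlapped that of Neutro, and in RTT_ROSA26 it stood above Neutro at 1977 CPM. Monocyte_1 held 1225 to 1722 CPM. Among macrophages, TAM_Spp1, led by Ppbp, Cd24a and Thbs1, held 1634 CPM in RTT, 1681 in RTT_ROSA26 and 1517 in RTT_PTGS12KO, above every sample's TAM_C1q (934, 768 and 1072 CPM). Ctsk_Macro, led by the osteoclast genes Ctsk, Mmp9 and Oscar, had the lowest macrophage level, 425 CPM in RTT, 231 in RTT_ROSA26 and 374 in RTT_PTGS12KO. NK cells held 189.9 and 199 CPM and T_CD8 136.

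Cebpa was sparse throughout and stayed under the 10 CPM minimum (mean of the 4 samples) in both classes and in their pool. In macrophages it stood at 9.61 CPM in RTT, 9.85 in RTT_ROSA26, 7.97 in RTT_PTGS12KO and 8.37 in NTT (34 UMIs), and in monocytes at 7.14, 7.98 (8 UMIs), 5.31 and 5.28 CPM in this order. Its highest types were Macro, 11 to 16.2 CPM, and TAM_C1q, 11.1 to 13.2 CPM, whose range lay clear of the next type, TAM_H2Ab1 (7.93 to 10.2). Neutrophils did not lead this order, with 11.3 CPM in RTT, 7.88 in RTT_ROSA26, 4.87 in RTT_PTGS12KO and 2.58 in NTT.

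By the mean over samples, Cebpd was highest in Myofibrobl, Neutro and Macro, followed by Infl_Mono, which in RTT_ROSA26 stood above Neutro at 104 CPM. Myofibrobl held 173 CPM in RTT and 51.4 in RTT_ROSA26, Neutro 82.7 to 150.1 over the 4 samples, and Macro 59.5 to 128 over 3. In macrophages its level was 56.0 CPM in RTT (54.5 to 57.5), 45.7 in RTT_ROSA26 (44.4 to 47.1), 37.1 in RTT_PTGS12KO (35.8 to 38.3) and 33.0 in NTT (27.6 to 39.1). RTT was the highest and NTT the lowest, and the intervals of NTT and RTT_PTGS12KO overlapped. In monocytes Cebpd was 53.8 CPM in RTT, 66.9 in RTT_ROSA26 (67 UMIs), 41.9 in RTT_PTGS12KO and 38.7 in NTT. The 2 samples with few monocytes were here the 2 high ones.

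Mitf was highest in Ctsk_Macro, the type led by osteoclast genes. It held 39.2 CPM in RTT, 51.6 in RTT_ROSA26 and 36.7 in RTT_PTGS12KO, and this range lay above every other type with at least 50 cells, the next being Macro at 23.4 to 29.8. TAM_C1q (14.9 to 19.5), TAM_Spp1 (14.7 to 21.0) and TAM_cycling (10.5 to 16.3) overlapped each other. Ctsk, Acp5 and Atp6v0d2, which lead this type, are themselves known MITF targets. Mast cells, another lineage that uses MITF, numbered 1 to 24 per sample and gave 0 to 31 Mitf UMIs, which was 102 CPM (69.2 to 145) in RTT_ROSA26. Of 9 melanoma cell markers, 0 reached 1 CPM in monocytes or macrophages of any sample, and their sum was at most 1.24 CPM there.

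In monocytes Mitf was 14.7 CPM in RTT (11.5 to 18.5), 21.0 in RTT_ROSA26 (13 to 32.0), 19.9 in RTT_PTGS12KO (18.6 to 21.3) and 27.3 in NTT (25.9 to 28.8). NTT was high and RTT low, while the RTT_ROSA26 value rested on 21 UMIs and overlapped all others. In macrophages Mitf spanned only 15.9 CPM in RTT to 19.8 in RTT_ROSA26, with 19.4 in NTT and 18.9 in RTT_PTGS12KO.

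Tfec, the MiT member known from macrophages and osteoclasts, followed a different order. In macrophages it was 46.8 CPM in RTT (45.5 to 48.2), 27.1 in RTT_ROSA26 (26.1 to 28.2), 18.8 in RTT_PTGS12KO (17.9 to 19.7) and 22.4 in NTT (18.0 to 27.5). RTT stood apart from the other 3 samples, and the RTT_ROSA26 interval overlapped that of NTT. In monocytes NTT was the high sample at 50.3 CPM (48.4 to 52.3), against 30.8 to 31.8 in the other 3 samples. By the mean over samples Infl_Mono led, at 38.3 to 60.4 CPM. In RTT it stood at 38.48 CPM, below TAM_C1q (52.19), Ctsk_Macro (51.35), TAM_cycling (43.17) and Macro (38.97). The ranges of the 9 highest types overlapped from each to the next, ending at TAM_H2Ab1 (17.5 to 23.1). Dendritic cells, NK cells, T_CD8 and Myofibrobl all held under 10 CPM, from 0.415 to 9.47.

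Maf was highest in TAM_C1q and Macro. TAM_C1q, led by Gdf15, Apoe and Gas6, held 636 CPM in RTT, 474 in RTT_ROSA26 and 337 in RTT_PTGS12KO, and Macro held 581, 853 and 259.9 CPM in the same samples. TAM_cycling held 452 CPM in RTT, 418 in RTT_ROSA26, 235 in RTT_PTGS12KO and 173 in NTT. TAM_Spp1 was lower than TAM_C1q in each sample, with 243, 228 and 180.1 CPM in RTT, RTT_ROSA26 and RTT_PTGS12KO. Between TAM_C1q and TAM_Spp1, Maf and Cebpb were thus ordered in opposite ways in each of these 3 samples. Conventional dendritic cells (cDC2) had 10.2 to 40.5 CPM and T_CD8 19.2.

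**Figure D1:**
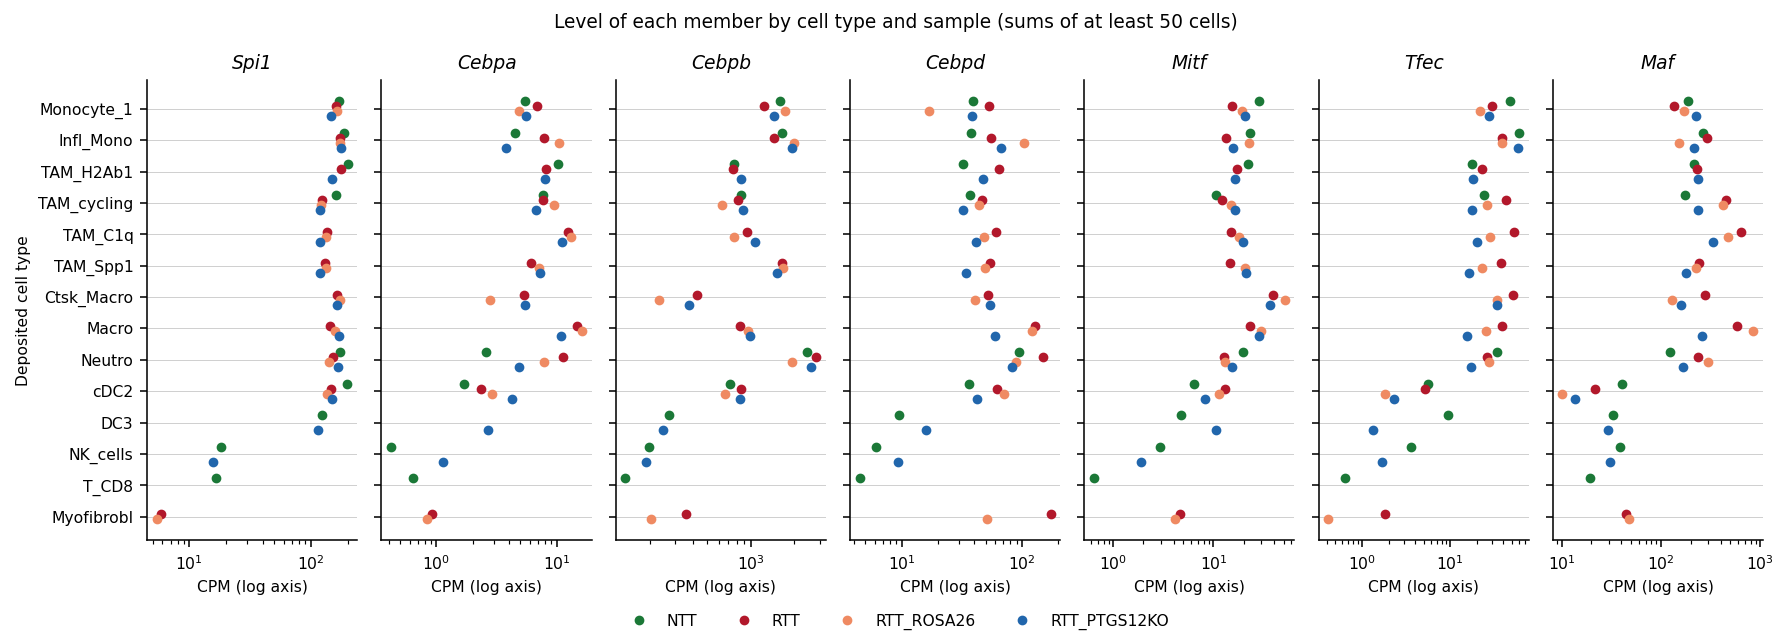
Level of each member in CPM (horizontal, log axis, 1 panel per gene) in each deposited cell type (vertical) and sample (colours), for sums of at least 50 cells; a level of 0 is not drawn. Spi1 stays near 120 to 200 CPM over all myeloid types, Cebpb is highest in Neutro in every sample but RTT_ROSA26, where Infl_Mono is higher. Mitf is highest in Ctsk_Macro, and Maf in TAM_C1q and Macro in the samples that hold them.

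Over all macrophages Maf was 483 CPM in RTT (479 to 487), 386 in RTT_ROSA26 (382 to 390.1), 249 in RTT_PTGS12KO (246 to 252) and 209 in NTT (195 to 224). No intervals overlapped, with RTT highest and NTT lowest. In monocytes the order differed, with 174 CPM in RTT, 159 in RTT_ROSA26, 223 in RTT_PTGS12KO and 206 in NTT. There the RTT and RTT_ROSA26 intervals (163 to 186 and 135 to 185) overlapped and both lay below the other samples.

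The comparison of NTT with RTT asked how the therapy-naive tumour differed from the resistant one. In macrophages 2 of the 6 members that passed 10 CPM lay past 2-fold, both lower in NTT, Maf at -1.20 (interval -1.31 to -1.11) and Tfec at -1.03 (-1.38 to -0.77). Of 7061 genes that passed, 8.19% lay past 2-fold in either direction. Cebpd was lower at -0.75 (-1.02 to -0.52) and Cebpb at -0.30 (-0.35 to -0.25), while Spi1 was higher at 0.41 (0.31 to 0.52). The interval of Mitf, 0.28 (-0.05 to 0.62), and that of Cebpa, -0.18 (-0.74 to 0.29), held 0. The members' median was -0.52, against 0.00 for all genes, and it was smaller in size under several alternatives given below.

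The macrophages compared were not the same types. Of the 308 NTT macrophages, 192 were TAM_H2Ab1 and 79 TAM_cycling, while RTT held mostly TAM_C1q (3412) and TAM_Spp1 (2057). Within TAM_cycling Maf was lower in NTT at -1.38 (-1.57 to -1.20) and Tfec at -0.83 (-1.40 to -0.36). Within TAM_H2Ab1 neither differed beyond counting error, Maf at -0.10 (-0.34 to 0.15) and Tfec at -0.38 (-1.23 to 0.46). With both types weighted equally, Maf was -0.81, Tfec -0.66 and Cebpb 0.053, and 0 members lay past 2-fold. With cells placed by marker UMIs in place of the deposited names, Maf stayed past 2-fold lower, Tfec was -0.43 and Cebpb turned to 0.32. The summed level of 11 macrophage markers in this class was 18710 CPM in NTT and 40650 in RTT, that of 8 monocyte markers 5125 and 1111, and that of 5 cDC2 markers 4393 and 534.5. Their part in the ratios was not tested.

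In monocytes 0 of 6 members lay past 2-fold between NTT and RTT, against 2.95% of 6438 genes. With cells placed by marker UMIs a member did lie past 2-fold. Mitf had the widest ratio, 0.85 (0.55 to 1.26), followed by Tfec at 0.65 (0.43 to 0.91). Cebpb at 0.32 (0.28 to 0.35) and Maf at 0.24 (0.14 to 0.35) were also higher in NTT, although Cebpb was -0.041 with cells placed by marker UMIs, and Cebpd was lower at -0.47 (-0.66 to -0.28). Spi1, at 0.09 (-0.01 to 0.20), and Cebpa, at -0.38 (-0.95 to 0.12), did not differ beyond counting error. Both main types gave the same picture for the MiT members, since Mitf was 0.88 in Monocyte_1 and 0.75 in Infl_Mono, and Tfec 0.67 and 0.64. For Maf they did not, with 0.49 (0.36 to 0.63) in Monocyte_1 and -0.11 (-0.27 to 0.05) in Infl_Mono. The median was 0.28 for the members and 0.04 for all genes. Summed macrophage markers in these monocytes were 5757 CPM in NTT and 17020 in RTT, and their part was not tested.

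**Figure D2:**
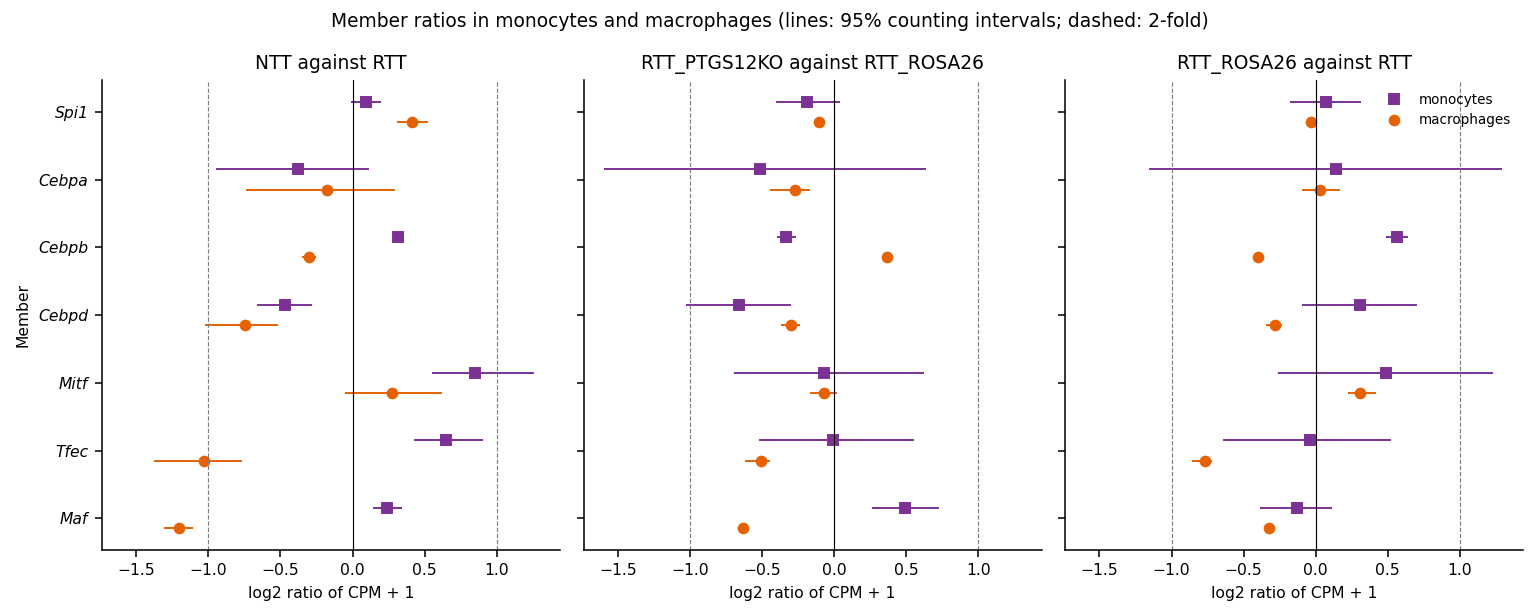
Log2 ratio of CPM + 1 (horizontal) of each member (vertical) in the 3 comparisons, with squares for monocytes, circles for macrophages, lines for 95% counting intervals and dashed lines at 2-fold. Maf and Tfec in macrophages of NTT against RTT are the 2 points past 2-fold, and Cebpb lies on opposite sides of 0 in the 2 classes in every panel. With cells placed by marker UMIs its 2 signs for NTT against RTT swapped.

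RTT_PTGS12KO against RTT_ROSA26 asked how immune cells compared when the resistant cancer cells lacked both cyclooxygenases. No member lay past 2-fold in macrophages (0 of 6, against 3.40% of 7061 genes). Maf was lower in RTT_PTGS12KO at -0.63 (-0.66 to -0.61), Tfec at -0.51 (-0.62 to -0.44), Cebpd at -0.30 (-0.37 to -0.24) and Spi1 at -0.10 (-0.14 to -0.07). Cebpb was higher at 0.37 (0.36 to 0.38). Mitf at -0.07 (-0.17 to 0.02) did not differ beyond counting error, and Cebpa, under the minimum, was -0.27 (-0.45 to -0.16). The members' median was -0.20, against -0.08 for all genes. Summed macrophage markers were 23210 CPM in RTT_PTGS12KO and 33270 in RTT_ROSA26 macrophages, monocyte markers 2132 and 996, and cDC2 markers 1588 and 392, and their part in the ratios was not tested.

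Within the 4 types of the macrophage class with enough cells, Maf was lower in RTT_PTGS12KO in 3, at -0.83 (-0.87 to -0.80) in TAM_cycling, -0.49 (-0.53 to -0.45) in TAM_C1q and -0.34 (-0.41 to -0.27) in TAM_Spp1. In Ctsk_Macro it was higher, at 0.31 (0.17 to 0.45). In Macro, which was kept out of the class, Maf was past 2-fold lower at -1.71 (-1.90 to -1.53), on 96 and 130 cells, and Cebpd at -1.02 (-1.46 to -0.62). Tfec was lower in TAM_cycling, TAM_C1q and TAM_Spp1, from -0.55 to -0.45, and was level in Ctsk_Macro at -0.01 (-0.32 to 0.30). Cebpb was higher in TAM_cycling (0.48), TAM_C1q (0.48) and Ctsk_Macro (0.69) and lower in TAM_Spp1, at -0.15 (-0.17 to -0.12). Mitf was lower only in Ctsk_Macro among the 4, at -0.48 (-0.78 to -0.22). Cebpd was lower in TAM_Spp1 (-0.53), TAM_cycling (-0.42) and TAM_C1q (-0.20) and higher in Ctsk_Macro, at 0.41 (0.17 to 0.67). When the 3 droplet loads were read apart, Maf in TAM_C1q spanned 336 to 339.5 CPM in RTT_PTGS12KO and 465 to 484.5 in RTT_ROSA26, and Cebpb 1070 to 1073 and 749 to 800.2, so the loads of the 2 samples did not overlap. Nor did they for both genes in TAM_cycling, for Maf in TAM_Spp1 or for Cebpb in Ctsk_Macro. The loads overlapped for Cebpb in TAM_Spp1 (1423 to 1622 and 1550.0 to 1739 CPM) and for Maf in Ctsk_Macro (129 and 177 in the 2 RTT_PTGS12KO loads with enough cells, 122 to 142 in RTT_ROSA26). The loads share the same cells' suspension and are technical repeats.

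In monocytes 0 of 6 members lay past 2-fold for this pair (3.45% of 6438 genes), and RTT_ROSA26 offered 144 cells. Placing cells by marker UMIs brought a member past 2-fold here too. Maf was higher in RTT_PTGS12KO at 0.49 (0.27 to 0.73), Cebpb lower at -0.33 (-0.40 to -0.27) and Cebpd lower at -0.66 (-1.03 to -0.30). Intervals of the other members held 0, the widest being Cebpa at -0.51 (-1.59 to 0.64). By type, Cebpb was -0.25 (-0.36 to -0.14) in Monocyte_1 and -0.04 (-0.13 to 0.05) in Infl_Mono, the type of 86 of the 144 RTT_ROSA26 monocytes. For Cebpd the pair of types disagreed, with 1.14 (0.14 to 2.50) in Monocyte_1 and -0.62 (-1.03 to -0.21) in Infl_Mono. The Monocyte_1 value rested on 7 Cebpd UMIs in RTT_ROSA26. RTT_ROSA26 monocytes were 54 Monocyte_1 and 86 Infl_Mono cells, where RTT_PTGS12KO had 3347 and 635. The median was -0.13 for the members and 0.00 for all genes. Summed macrophage markers in these monocytes were 8170 CPM in RTT_PTGS12KO and 11740 in RTT_ROSA26, and cDC2 markers 4293 and 1276, and their part was not tested.

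**Figure D3:**
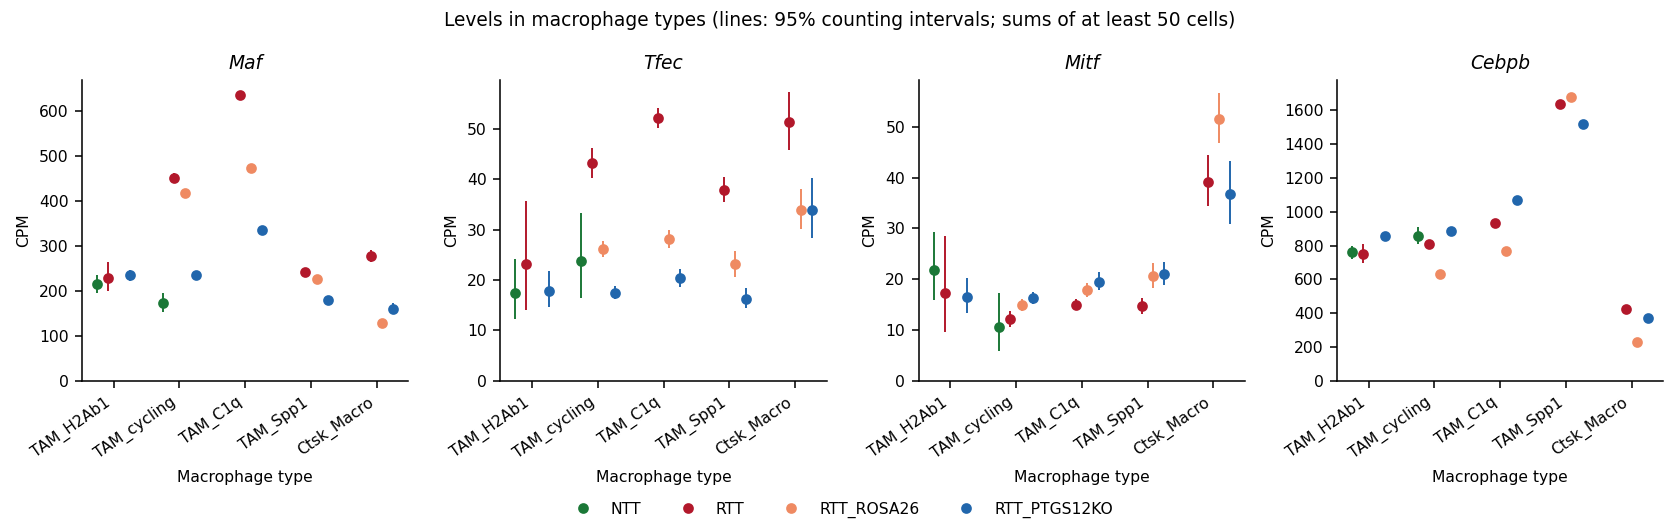
Level in CPM (vertical, from 0) of Maf, Tfec, Mitf and Cebpb in the 5 macrophage types (horizontal) and 4 samples (colours), with 95% counting intervals as lines and sums of at least 50 cells only. In TAM_C1q, Maf is 636 CPM in RTT and 337 in RTT_PTGS12KO, and Mitf is highest in Ctsk_Macro in the 3 samples with a Ctsk_Macro point, which NTT lacks.

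RTT_ROSA26 against RTT set 2 resistant tumours with intact cyclooxygenase genes side by side, and it shares a sample with each of the comparisons above. In macrophages 0 of 6 members lay past 2-fold (1.30% of 7061 genes). Tfec was lower in RTT_ROSA26 at -0.77 (-0.86 to -0.72), a ratio further from 0 than that of the knockout against its control. Cebpb was lower at -0.40 (-0.42 to -0.39), Maf at -0.32 (-0.34 to -0.30) and Cebpd at -0.29 (-0.35 to -0.23). Mitf was higher at 0.30 (0.23 to 0.42), and Spi1 was level at -0.03 (-0.07 to 0.00). Cebpa was 0.03 (-0.10 to 0.17). The members' median was -0.30, against 0.06 for all genes.

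Tfec was lower in RTT_ROSA26 in 4 of 4 macrophage types, from -0.87 in TAM_C1q to -0.58 in Ctsk_Macro, and Mitf was higher in 4 of 4, from 0.24 to 0.46. Maf was lower in 4 of 4, from -1.09 (-1.21 to -0.99) in Ctsk_Macro to -0.09 (-0.16 to -0.03) in TAM_Spp1. In Macro, outside this class, Maf was higher in RTT_ROSA26 at 0.55 (0.41 to 0.71) and Cebpb at 0.18 (0.05 to 0.31). Cebpb was lower in 3 of 4 and 0.04 (0.02 to 0.07) in TAM_Spp1. Over all 10 types with at least 50 cells in both samples, the Spi1 interval held 0 in 10 of 10. Summed macrophage markers were 33270 CPM in RTT_ROSA26 and 40650 in RTT macrophages, and their part was not tested. In monocytes 0 of 6 members lay past 2-fold (3.29% of 6438 genes), and Cebpb was the only member whose interval excluded 0, at 0.56 (0.49 to 0.64), with a members' median of 0.19 and 0.01 for all genes. Within types, Maf was lower in RTT_ROSA26 in Infl_Mono at -0.91 (-1.26 to -0.57) and 0.36 (-0.02 to 0.72) in Monocyte_1. Cebpd was 0.91 (0.40 to 1.44) in Infl_Mono and -1.60 (-2.99 to -0.58) in Monocyte_1, the latter on 7 RTT_ROSA26 UMIs. RTT monocytes were 384 Monocyte_1 and 138 Infl_Mono cells, and those of RTT_ROSA26 54 and 86. Summed macrophage markers in these monocytes were 11740 CPM in RTT_ROSA26 and 17020 in RTT, and cDC2 markers 1276 and 4023, and their part was not tested.

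Pooling monocytes with macrophages mixed these levels with the change in cell numbers. NTT against RTT had 1 of 6 members past 2-fold, Maf at -1.18 (-1.21 to -1.15), where 14.4% of 6954 genes lay past 2-fold. With types weighted equally, 0 members of this pair lay past 2-fold. RTT_PTGS12KO against RTT_ROSA26 had 0 of 6 (5.69%) and RTT_ROSA26 against RTT 0 of 6 (1.75%). Medians of the members were 0.21, -0.15 and -0.28 in this order, and those of all genes -0.12, -0.12 and 0.06. The first turned to -0.027 without mitochondrial and ribosomal genes in the denominator. This setting moved the Maf ratio of the pair by -0.096 and also brought Cebpa past the minimum. The second turned to 0.014 with TMM factors, which moved the Maf ratio of that pair by 0.17. Each pooled difference was divided into a part from the share of UMIs that each cell type holds and a part from levels within types. The shares are of UMIs, so the number of cells of a type and the UMIs per cell both enter the first part.

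For NTT minus RTT, pooled Maf was 206 against 468 CPM, a difference of -262 CPM made of -195 from type shares and -67.5 within types. For RTT_PTGS12KO minus RTT_ROSA26, Maf differed by -143 CPM, with -44.0 from shares and -99.1 within types. Shares thus made up more of the first difference and levels within types more of the second. Cebpb differed by 489 CPM (293 from shares, 197 within types) between NTT and RTT and by 373 CPM (257 and 117) between RTT_PTGS12KO and RTT_ROSA26. Spi1 differed by 38.4 CPM between NTT and RTT, 31.9 of it from shares. Between RTT_PTGS12KO and RTT_ROSA26 its parts, 9.31 from shares and -9.95 within types, nearly cancelled to -0.64 CPM. Tfec differed little in the pool of NTT and RTT, at 48.3 and 46.1 CPM, while it was higher in NTT in monocytes and lower in macrophages.

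**Figure D4:**
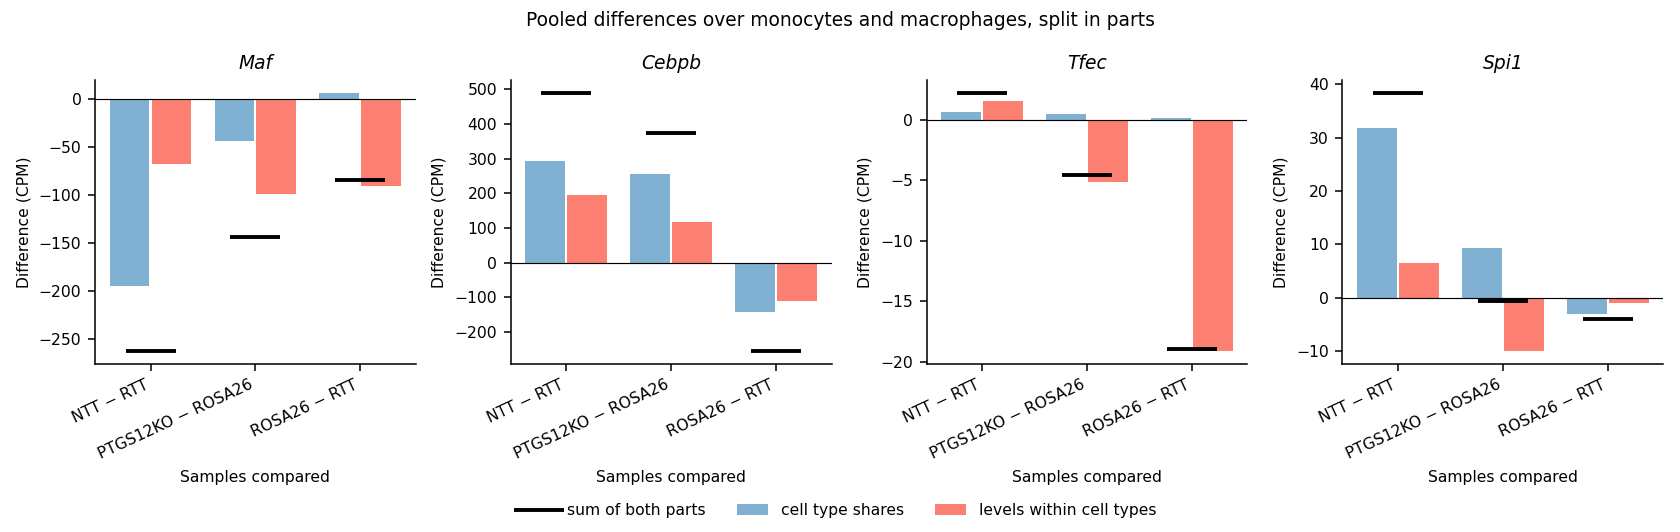
Pooled difference in CPM (vertical) of Maf, Cebpb, Tfec and Spi1 for the 3 pairs of samples (horizontal), with bars for the part from cell type shares and the part from levels within types and a black line for their sum. The Maf difference of -262 CPM between NTT and RTT lies mostly in shares, and that of -84.4 CPM between RTT_ROSA26 and RTT lies within types.

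Counting cells with at least 1 UMI gave the same order of samples as the CPM for Maf in macrophages, but not for Tfec. Maf was detected in 84.6% of RTT macrophages (exact 95% Clopper-Pearson interval 83.8 to 85.5), 80.3% in RTT_ROSA26 (79.3 to 81.3), 77.1% in RTT_PTGS12KO (76.0 to 78.3) and 71.8% in NTT (66.4 to 76.7). With each cell thinned to 4000 UMIs these became 67.7%, 61.6%, 49.2% and 46.4%. NTT and RTT_PTGS12KO were the lower pair on both scales. Tfec was detected in 42.1%, 30.5%, 23.8% and 21.1% of macrophages in this order, and in 16.2%, 9.66%, 6.88% and 7.37% after thinning. RTT was highest on both scales, and the order of NTT and RTT_PTGS12KO turned with thinning.

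Thinning left out 96, 152, 48 and 7 macrophages of RTT, RTT_ROSA26, RTT_PTGS12KO and NTT, whose median depths were 12915, 14097, 15570 and 11598 UMIs. As a background, NK and T cells with a Maf UMI made up 21.9% of 802 cells in NTT (12.3% thinned, median depth 8074) and 19.9% of 351 in RTT_PTGS12KO (9.18% thinned, 16051). In RTT and RTT_ROSA26 only 14 and 28 such cells existed, with 57.1% (28.9 to 82.3) and 35.7% (18.6 to 55.9), and 38.6% and 25.5% after thinning (median depths 16959 and 11528.5). T cells can express Maf themselves. For Tfec the NK and T cell shares were 2.62% in NTT, 2.28% in RTT_PTGS12KO, 28.6% of 14 in RTT (8.39 to 58.1) and 25% of 28 in RTT_ROSA26 (10.7 to 44.9). The macrophage shares of Tfec in RTT and RTT_ROSA26 lay within these last intervals, and thinned background shares were 8.92% and 9.19% there against 1.14% in NTT and 0.58% in RTT_PTGS12KO. So few NK and T cells cannot set the Tfec background of RTT and RTT_ROSA26. By level, Tfec was 46.8 and 27.1 CPM in macrophages of these 2 samples. It was 1.83 and 0.415 CPM in their Myofibrobl, 5.17 and 1.82 in cDC2, and 25.9 and 27.1 in Neutro. Cebpb was detected in 97.1% to 99.1% of macrophages and 99.3% to 99.7% of monocytes, against 50.2% of NK and T cells in NTT.

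Relatives of the members were read in the same macrophages. Tfe3, an MiT relative found in most cells, was 39.0 CPM in RTT, 38.4 in RTT_ROSA26, 34.3 in RTT_PTGS12KO and 40.1 in NTT. Tfeb, the lysosomal MiT factor, was 7.43, 8.47, 8.64 and 11.3 CPM in this order, under the minimum in macrophages. Cebpg was 45.5, 42.9, 42.9 and 47.7 CPM, and Cebpe, a factor of granulocyte maturation, 0.50, 0.46, 0.91 and 0.74 CPM, the last from 3 UMIs.

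The relatives were counted by list in macrophages, where 8.19% of 7061 genes lay past 2-fold between NTT and RTT, 3.40% in the knockout pair and 1.30% between RTT_ROSA26 and RTT. Of the 2 MiT relatives 1 passed the minimum, Tfe3, and it did not lie past 2-fold in any comparison. Of 4 Maf relatives that passed the minimum, 0 lay past 2-fold in any comparison. Of 3 C/EBP relatives that passed, Ddit3, a stress-induced member that lacks normal DNA binding, was higher in NTT than in RTT at 1.23 (57.8 against 24.1 CPM), and 0 of the 3 lay past 2-fold in the other pairs. PU.1 relatives (Spib and Spic) did not pass the minimum. Of 13 other myeloid transcription factors, NTT against RTT had 2 higher, Irf8 at 1.42 and Nr1h3 at 1.07, and 1 lower, Bhlhe41 at -1.27. Irf8, an interferon-linked factor of monocytes and dendritic cells, was 136 CPM in RTT, 125 in RTT_ROSA26, 276 in RTT_PTGS12KO and 365 in NTT, and its ratio in the knockout comparison was 1.14. Id3 was there the 1 lower, at -1.0. In RTT_ROSA26 against RTT 0 of 13 lay past 2-fold.

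Genes known as targets of the members did not all follow them. Their counts stand against the same shares of all genes, 8.19%, 3.40% and 1.30% in this order. Of 9 MITF and TFEC targets that passed in macrophages, 5 were past 2-fold lower in NTT than in RTT and 0 higher, with a median of -1.04. These included the lysosomal glycoprotein gene Gpnmb at -2.43, the cathepsin gene Ctsk at -1.77, the proton pump subunit Atp6v0d2 at -1.26 and the acid phosphatase Acp5 at -1.10. For RTT_PTGS12KO against RTT_ROSA26, 2 were lower, Acp5 at -1.21 (387.5 against 896.5 CPM) and Atp6v0d2 at -1.13 (23.5 against 52.6 CPM), with a median of -0.32. For RTT_ROSA26 against RTT 1 was lower, Gpnmb at -1.06. Ctsk, Acp5 and Atp6v0d2 also led the cell type Ctsk_Macro, which held 329 cells in RTT, 401 in RTT_ROSA26, 188 in RTT_PTGS12KO and 5 in NTT.

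Of 8 MAF targets, 3 were lower in NTT than in RTT macrophages, the coagulation factor gene F13a1 at -2.63, Il10 at -2.16 and the mannose receptor Mrc1 at -1.96, with a median of -0.09. None of the 8 lay past 2-fold between RTT_PTGS12KO and RTT_ROSA26 (median -0.24), and 2 were lower in RTT_ROSA26 than in RTT, Il10 at -1.49 and F13a1 at -1.08 (median -0.12). Il10 was 40.7 CPM in RTT, 13.9 in RTT_ROSA26, 7.93 in RTT_PTGS12KO and 8.37 in NTT, and it stands in both the MAF and the C/EBP target lists. Of 8 C/EBP targets, NTT against RTT had 1 higher, Csf3r at 1.20, and 3 lower, among them Il10 and the lysozyme gene Lyz2 at -1.45 (median -0.53). The knockout pair had 0 of 8 (median -0.17), and RTT_ROSA26 against RTT had Il10 lower (median -0.69). Of 10 PU.1 targets, 2 were higher in NTT, the NADPH oxidase gene Cybb at 1.90 and the Fc receptor Fcgr1 at 1.09 (median -0.27). Cybb was also the 1 higher in RTT_PTGS12KO, at 1.04 (median -0.06), and 0 of 10 lay past 2-fold between RTT_ROSA26 and RTT (median -0.16).

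In monocytes, MITF and TFEC targets past 2-fold numbered 0 of 7 for NTT against RTT, 2 of 7 lower for RTT_PTGS12KO against RTT_ROSA26 and 1 of 7 higher for RTT_ROSA26 against RTT, where 2.95%, 3.45% and 3.29% of all 6438 genes lay past 2-fold. MAF targets had 3 of 7 lower, 1 of 7 lower, and 1 higher with 2 lower in this order. C/EBP targets had 1 of 9 higher, 1 of 9 lower and 1 of 9 higher, and PU.1 targets had 0 of 10 in all 3 pairs.

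Across the 42 sums of at least 50 cells, from 14 cell types, the genes closest to each member were found among 7096 genes by Pearson's r of log2(CPM + 1). These sums share libraries and depth, and r is given as a description. Spi1 was closest to Csf2ra (0.975), a GM-CSF receptor chain, Btk (0.969) and Rbm47 (0.960). Cebpb was closest to Cd14 (0.930), the LPS co-receptor, Il13ra1 (0.930) and Tpd52 (0.918). Mitf was closest to Atp6v0c (0.905) and Tcirg1 (0.901), both subunits of the vacuolar proton pump, and Cstb (0.891). Tfec was closest to Pxk (0.911), Ms4a6d (0.897) and Rab5c (0.895), and Maf to Tmem87b (0.925), Snx2 (0.923) and Rab1a (0.918). Cebpa was closest to Snx2 (0.913), Adam9 (0.912) and the complement gene C1qa (0.911), and Cebpd, with the lowest values, to Fndc3b (0.836), Cep170 (0.821) and Tmem59 (0.809). Between members, r was highest for Maf with Tfec (0.843) and lowest for Cebpd with Spi1 (0.297).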

How the data were processed

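CD45+ cells of 4 samples, 1 per group, were labelled with multiplexing oligos, pooled and loaded 3 times. The matrix deposited by the authors holds UMI counts for 33368 cells, and a second file names their samples and types. Per the study's methods and the submitters' processing notes, counts came from Cell Ranger with mm10, cells with over 1000 genes were kept, and types were named in Seurat 4.3.0 after integration with other experiments. In the deposited counts every cell had at least 1001 genes, under 15% mitochondrial and at most 40% ribosomal UMIs. No column was left unused (0).

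UMIs were summed per sample and deposited type in Python 3.11.15 (numpy 2.4.6, scipy 1.17.1, pandas 2.3.3, matplotlib 3.10.9). Summed depth per class ran from 1002126 to 99600732 UMIs, so the 144 monocytes of RTT_ROSA26 give the widest intervals. Levels used sums of at least 50 cells, while the split of pooled differences used types of any size. Counts past 2-fold used genes whose mean over the 4 samples reached 10 CPM. With 1 sample per group no p-value was computed. The ratio and counting steps were tested on simulated data. No doublet caller was run, since the oligos remove doublets between samples, and doublets within a sample may remain.

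The members and the gene lists were chosen with earlier results of these data known. All 7 members were named everywhere, with 3 most similar genes each, 5 relatives and up to 4 genes past 2-fold per list in macrophages. Target lists rest on background knowledge. Genes that these rules name but the text leaves out are not reported here. Alternatives were CPM + 10, TMM factors (edgeR 4.0.16, R 4.3.3), a denominator without mitochondrial and ribosomal protein genes, cells with over 1500 genes and under 10% mitochondrial UMIs, removal of the 5% of cells with most UMIs, equal weights for cells or for types, placing cells by marker UMIs and no minimum CPM. Counting Macro as macrophages was chosen after seeing the data.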

Additional observations from a re-analysis of the deposited data

Results flagged for a closer look

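In all, 3 members differed in opposite directions in monocytes and in macrophages of the same pair of samples, with both counting intervals clear of 0; with 1 sample per group, the difference between the classes was not tested. For NTT against RTT, Maf was 0.24 in monocytes and -1.20 in macrophages on the log2 scale, Tfec 0.65 and -1.03, and Cebpb 0.32 and -0.30. Within types, Maf was 0.49 in Monocyte_1 and -1.38 in TAM_cycling, but its interval held 0 in Infl_Mono (-0.11) and TAM_H2Ab1 (-0.10). Tfec was -0.83 in TAM_cycling, and its interval held 0 in TAM_H2Ab1 (-0.38). Cebpb was not lower in NTT in TAM_cycling (0.09) or TAM_H2Ab1 (0.02). For RTT_PTGS12KO against RTT_ROSA26, Maf was 0.49 and -0.63 and Cebpb -0.33 and 0.37, although within Infl_Mono the Cebpb interval held 0 at -0.04 (-0.13 to 0.05). For RTT_ROSA26 against RTT, Cebpb was 0.56 and -0.40. The RTT_ROSA26 monocytes behind these values numbered 144 cells, and with cells placed by marker UMIs Cebpb for NTT against RTT was -0.041 and 0.32.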

How the results depend on the processing

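Of the members' ratios under the alternatives, 460 stayed within the counting interval of the reported value, 122 moved outside it, and 6 whose interval had excluded 0 changed sign. The cause was not tested. TMM factors moved the Maf ratios by -0.10 to 0.17 (log2) over the pairs and classes. With cells placed by marker UMIs, Cebpb for NTT against RTT was -0.041 in monocytes and 0.32 in macrophages. With types weighted equally, Cebpb was 0.053 in macrophages of NTT against RTT and 0.11 pooled in RTT_ROSA26 against RTT, where Spi1 was 0.016, and Tfec was 0.012 pooled in the knockout pair.

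Counts past 2-fold stayed at the reported value or within 1.5 times of it in 77 cases. With types weighted equally, 0 members passed in the pool and 0 in macrophages of NTT against RTT. In those macrophages 1 passed with CPM + 10, with Macro included or with cells placed by markers, and the last setting gave 1 in monocytes of this pair and 1 in those of the knockout pair. In the reported setting 14.4% of all genes lay past 2-fold in the pool of NTT against RTT and 8.19% in macrophages. It was 2.95% in monocytes of that pair and 3.45% in those of the knockout pair. Shares of all genes under the alternatives are not given here.

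Without mitochondrial and ribosomal genes in the denominator, Cebpa also passed the minimum in the pool and in macrophages, which changed the members behind the medians. Medians for NTT against RTT in the pool were -0.027 without mitochondrial and ribosomal genes in the denominator, 0.066 without a minimum and 0.36 with TMM. In monocytes they were 0.41 by marker placement, 0.20 without mitochondrial and ribosomal genes and 0.19 with equal types. In macrophages they were -0.078, -0.33 and -0.30 under these settings and -0.30 without a minimum. For the knockout pair, pooled medians were 0.014 with TMM, -0.055 with equal cells, and -0.25 both without a minimum and without mitochondrial and ribosomal genes. In macrophages they were -0.27 without a minimum and -0.10 with TMM. For RTT_ROSA26 against RTT, the pool gave -0.22 with equal cells, -0.37 with TMM and -0.032 with equal types, and macrophages -0.23, -0.40 and -0.21.

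Under the stricter filter on cells, 230 levels of at least 10 CPM moved by -0.44 to 0.36 (log2). With CPM + 10 the set of 3 closest genes changed for 5 members, and all 3 genes changed for Cebpa. No paired analysis was possible because no group holds a second sample, and no sample could be left out for the same reason.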
